A study of Rattus norvegicus with 15 samples.

Results

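Squalene is made and turned into cholesterol (CHOL) by a series of enzymes of the endoplasmic reticulum. The mRNA of 9 of them was followed in rat intestine. The members were Fdft1, Sqle, Lss, Cyp51, Msmo1, Nsdhl, Hsd17b7, Sc5d and Dhcr7, taken by name as every probe outside the array's controls whose listed gene is one of the 9 or an older alias of it. Each had exactly 1 probe, Sc5d under its older name Sc5dl, so that the members are 9 of the 13042 genes with a tested probe. All 9 probes were well above background on all 15 arrays.

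The study asked what Roux-en-Y gastric bypass (RYGB) changes in the Roux limb (RL), the piece of small intestine that is joined to the stomach and carries the food. Intestinal RNA of 15 male rats was measured, 1 single-color array per rat and 5 rats per group. GK-S-30 rats were Goto-Kakizaki (GK) rats, which are lean and spontaneously diabetic. They had RYGB with an RL of 30 cm at 16 wk of age, and the RL was sampled 14 wk after the operation. GK-Sham-PF rats were GK rats of the same age whose intestine was opened and rejoined without rearrangement and whose food was limited to the lowest intake among the surgical groups. The food of GK-S-30 rats was not limited in this way, so that feeding also differed between the GK groups. Wistar rats, the nondiabetic strain from which GK rats were bred, were age-matched, had no operation and ate standard chow freely. In GK-Sham-PF and Wistar rats the corresponding piece of small intestine was taken, and all rats were fasted overnight before sampling. GK-Sham-PF and Wistar rats therefore differed in strain, sham operation and feeding together, and GK-S-30 rats differed from Wistar rats in strain and in the bypass operation.

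CHOL synthesis has a mevalonate arm, which ends in farnesyl diphosphate, and a sterol arm, which begins when squalene synthase joins farnesyl diphosphate molecules into squalene. Squalene is then oxidized, folded into rings and trimmed of methyl groups, and the small intestine is among the organs that make much CHOL. The genes of both arms are known targets of SREBP2, a membrane-bound transcription factor that is released when sterols in the endoplasmic reticulum run low and that acts at sterol regulatory elements, often beside CCAAT and GC boxes.

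Because the members moved together, their promoters were looked up. RefSeq promoter windows (build GRCr8, 250 bases before to 50 after the gene start) matched 7 of the 9 members, all but Fdft1 and Sqle, which are named only. Both strands were searched for a sterol regulatory element (TCACNCCAC), a CCAAT box (CCAAT), a GC box (GGGCGG) and an E box (CACGTG), which may overlap one another. A CCAAT box stood in 5 of the 7 windows, against 37.5% of 33469 promoters of the same length, and a GC box in 6 of 7, against 33.1%. The E box was found in 1 member and in 6.42% of all promoters. The exact sterol regulatory element was in 0 of 7 members and in 1.12% of all promoters, which says only that these letters are not in this window.

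The 250 bases upstream of the start are shown for Msmo1 and Dhcr7, the matched members whose rise over GK-Sham-PF in GK-S-30 rats was largest and smallest, for Nsdhl, the matched member with most CCAAT boxes, and for Sc5d, which holds the E box. They are written 5′ to 3′ on the strand of the gene. Capitals mark the motifs, and a CCAAT box or GC box on the opposite strand reads ATTGG or CCGCCC.
Msmo1: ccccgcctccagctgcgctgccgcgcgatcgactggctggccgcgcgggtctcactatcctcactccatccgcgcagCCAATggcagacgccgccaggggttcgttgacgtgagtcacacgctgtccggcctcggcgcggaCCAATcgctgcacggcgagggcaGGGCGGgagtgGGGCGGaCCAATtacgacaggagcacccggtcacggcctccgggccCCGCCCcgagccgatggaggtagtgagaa
Nsdhl: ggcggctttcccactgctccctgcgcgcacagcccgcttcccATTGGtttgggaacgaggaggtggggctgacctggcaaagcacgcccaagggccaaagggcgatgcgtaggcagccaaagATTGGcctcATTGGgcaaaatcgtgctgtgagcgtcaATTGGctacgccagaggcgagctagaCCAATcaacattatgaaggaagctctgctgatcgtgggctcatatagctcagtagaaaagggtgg
Sc5d: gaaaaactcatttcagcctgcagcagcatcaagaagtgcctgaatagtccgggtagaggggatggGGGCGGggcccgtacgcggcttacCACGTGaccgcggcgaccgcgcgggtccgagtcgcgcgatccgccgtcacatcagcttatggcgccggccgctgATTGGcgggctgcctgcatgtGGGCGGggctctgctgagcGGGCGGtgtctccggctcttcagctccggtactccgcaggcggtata
Dhcr7: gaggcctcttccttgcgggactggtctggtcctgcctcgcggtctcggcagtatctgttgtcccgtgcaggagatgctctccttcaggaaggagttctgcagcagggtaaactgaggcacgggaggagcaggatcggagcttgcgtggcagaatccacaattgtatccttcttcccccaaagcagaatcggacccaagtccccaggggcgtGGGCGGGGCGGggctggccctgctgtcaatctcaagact
Msmo1 (chr16:29746863-29747112 of GRCr8, plus strand) had 3 CCAAT boxes and 3 GC boxes in this stretch, and Nsdhl (chrX:155817110-155817359, plus strand) had 5 CCAAT boxes and no GC box. In Sc5d (chr8:51538278-51538527, minus strand) 1 CCAAT box, 3 GC boxes and 1 E box were found. Dhcr7 (chr1:208444184-208444433, plus strand) had no CCAAT box, and its 2 GC boxes overlapped. A match is a description of the letters and was not tested for binding.

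The share of probes well above background was 66.7% to 74.8% per array. The 75th percentile of the processed signal lay between 224 and 384, with Wistar replicate 3 and GK-Sham-PF replicate 5 the dimmest. The arrays sat on 4 slides: 4 Wistar arrays filled slide A, 3 GK-Sham-PF arrays shared slide B with Wistar 1, slide C carried GK-Sham-PF 4 and 5 with GK-S-30 1 and 2, and the other GK-S-30 arrays were on slide D. Levels below are log2 of the background-subtracted signal after quantile normalization, and a difference of 1 is a 2-fold change. Each probe hybridizes with its own strength, so that levels were compared between groups and not between genes. Differences were tested with limma over all 15 arrays, with Benjamini-Hochberg adjustment over the 17052 tested probes.

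Relative to GK-Sham-PF rats, all 9 members were higher in the RL of GK-S-30 rats, with log2 differences of 0.49 (Dhcr7) to 2.07 (Sqle) and limma adjusted p between 7.65e-05 and 0.029. Of all tested probes 4.79% were called higher in this comparison. The median difference of the members was 1.36, against -0.02 over all tested probes, and 0.782% of the 13042 genes had a difference above that median. In 9 of 9 members the lowest GK-S-30 array lay above the highest GK-Sham-PF array, which held for 4.6% of tested probes. At least 2-fold higher and called were 6 of the 9 (Fdft1, Sqle, Lss, Cyp51, Msmo1 and Hsd17b7), against 1.54% of probes. With slide as a fixed block, a fit in which slide C alone links these groups, 5 of the 9 passed (Fdft1, Sqle, Cyp51, Msmo1 and Sc5d). In that fit 1.95% of tested probes were called in either direction, against 8.37% without the block.

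Against Wistar rats, GK-S-30 rats likewise had higher levels of all 9 members, by 0.68 (Dhcr7) to 2.28 (Sqle) on the log2 scale with limma adjusted p between 8.68e-07 and 0.00138. Called higher in this comparison were 11.9% of tested probes. The median difference of the members was 1.60, against -0.01 over all probes. No member's GK-S-30 arrays overlapped the Wistar arrays, and 9.12% of probes were separated in this direction. A rise of at least 2-fold was called in 8 of the 9, all but Dhcr7, against 3.03% of probes. Both comparisons use the same 5 GK-S-30 arrays, so that they are not independent. No slide holds both groups, and Wistar 1, on slide B, is the only Wistar array that shares a slide with another group. With slide as a fixed block the Wistar side therefore rests on this array, and the differences were 0.83 (Dhcr7) to 3.34 (Sqle). None of the 9 members lay above the Wistar group mean on it.

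**Figure D1:**
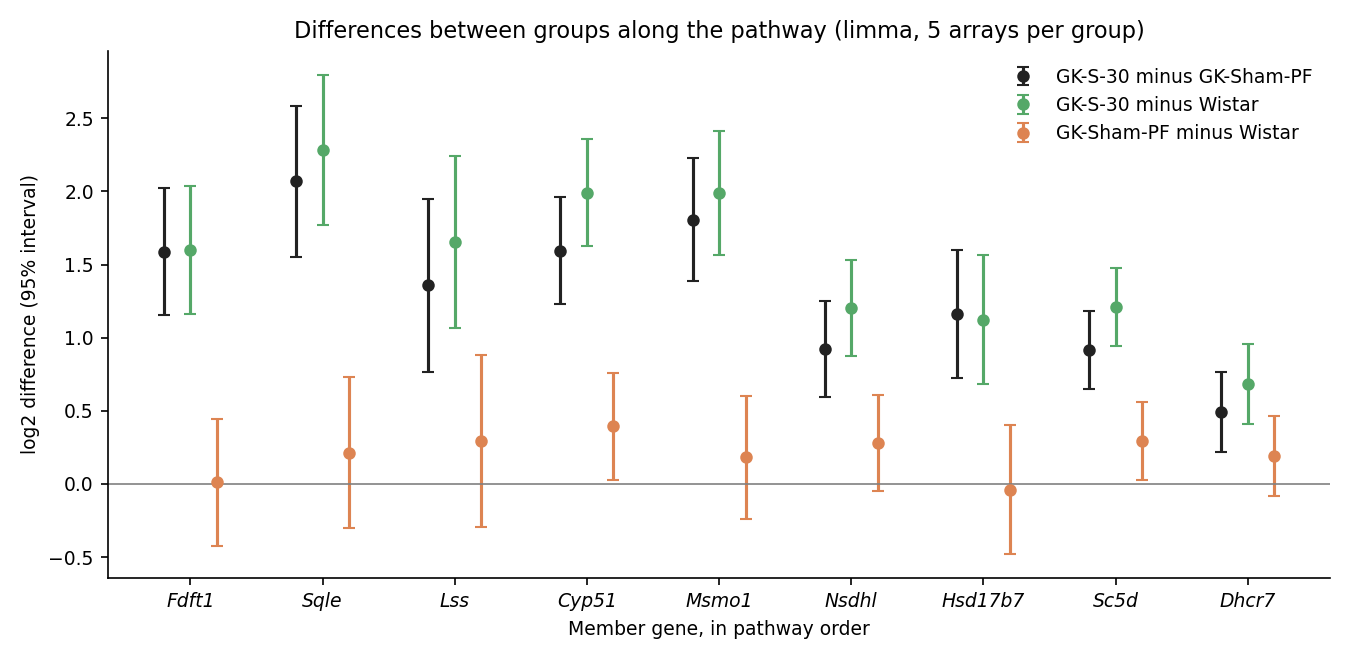
Log2 differences of the 9 members, in pathway order on the horizontal axis, for the 3 pairs of groups. Points are limma estimates from 5 arrays per group and bars are 95% intervals; GK-S-30 lies above both other groups at every member, and the intervals of GK-Sham-PF minus Wistar reach 0 or stop just above it.

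Fdft1 encodes squalene synthase, the first enzyme of the sterol arm; its probe lies at chr15:42436506-42436565 in rn4, the build of the files. Its level was 7.70, 8.50, 7.57, 7.93 and 7.93 on the Wistar arrays 1 to 5. On the GK-Sham-PF arrays it was 8.21, 8.21, 8.27, 7.23 and 7.77, and on the GK-S-30 arrays 9.60, 9.29, 9.79, 9.49 and 9.45. The GK-S-30 arrays stood apart, while Wistar and GK-Sham-PF arrays overlapped and GK-Sham-PF 4 was the lowest of all. GK-S-30 exceeded GK-Sham-PF 3.01-fold (log2 difference 1.59, SE 0.20, adjusted p = 0.00028) and Wistar 3.03-fold (1.60, adjusted p = 4.83e-05). GK-Sham-PF and Wistar means differed by 0.01 (95% interval -0.42 to 0.45, adjusted p = 0.986).

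Sqle, squalene monooxygenase, adds oxygen to squalene and is a rate-limiting enzyme of the sterol arm (probe at chr7:96111449-96111508). The 5 Wistar arrays gave 10.30, 11.22, 10.12, 10.68 and 10.49. GK-Sham-PF arrays read 11.05, 10.96, 11.28, 9.84 and 10.74, and GK-S-30 arrays 12.90, 12.78, 12.67, 13.13 and 12.75. The lowest GK-S-30 array was more than 1 log2 unit above the highest array of either other group. The difference from GK-Sham-PF was 2.07 (SE 0.24, 4.20-fold, adjusted p = 0.000143), the 33rd largest rise among the 17052 probes, and that from Wistar was 2.28 (4.87-fold, adjusted p = 7.98e-06). Between GK-Sham-PF and Wistar it was 0.21 (interval -0.30 to 0.73, adjusted p = 0.71).

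A further probe on the array has no gene name, and its description in the files names squalene monooxygenase. It lies at chr7:96096738-96096797 in rn4, was well above background on 15 arrays and falls outside the rule used for the members. Its level was 11.33 to 12.72 in Wistar, 11.44 to 12.48 in GK-Sham-PF and 13.99 to 14.19 in GK-S-30 rats, so that the GK-S-30 arrays again did not overlap the others. In a fit of all 27892 probes above background, named or not, its differences were 2.01 from GK-Sham-PF (4.03-fold, adjusted p = 0.000207), 2.12 from Wistar (4.33-fold, adjusted p = 1.45e-05) and 0.10 between GK-Sham-PF and Wistar (adjusted p = 0.888).

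Lss, lanosterol synthase, folds the epoxide of squalene into the ring system of lanosterol (probe at chr20:12507929-12507988). Its levels were 8.96, 9.76, 8.06, 9.36 and 9.22 in Wistar, 9.84, 9.37, 9.82, 8.89 and 8.91 in GK-Sham-PF and 10.83, 10.37, 10.53, 10.99 and 10.90 in GK-S-30 rats. Wistar 3, one of the dim arrays, was the lowest of the Wistar arrays, and Lss had the widest spread of the members in that group (SD 0.63, n = 5). GK-S-30 was 2.56-fold above GK-Sham-PF (log2 difference 1.36, SE 0.28, adjusted p = 0.00748) and 3.14-fold above Wistar (1.65, adjusted p = 0.000514). With slide as a fixed block these differences were 1.70 and 2.42 and no longer passed (adjusted p = 0.0598 and 0.0862).

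**Figure D2:**
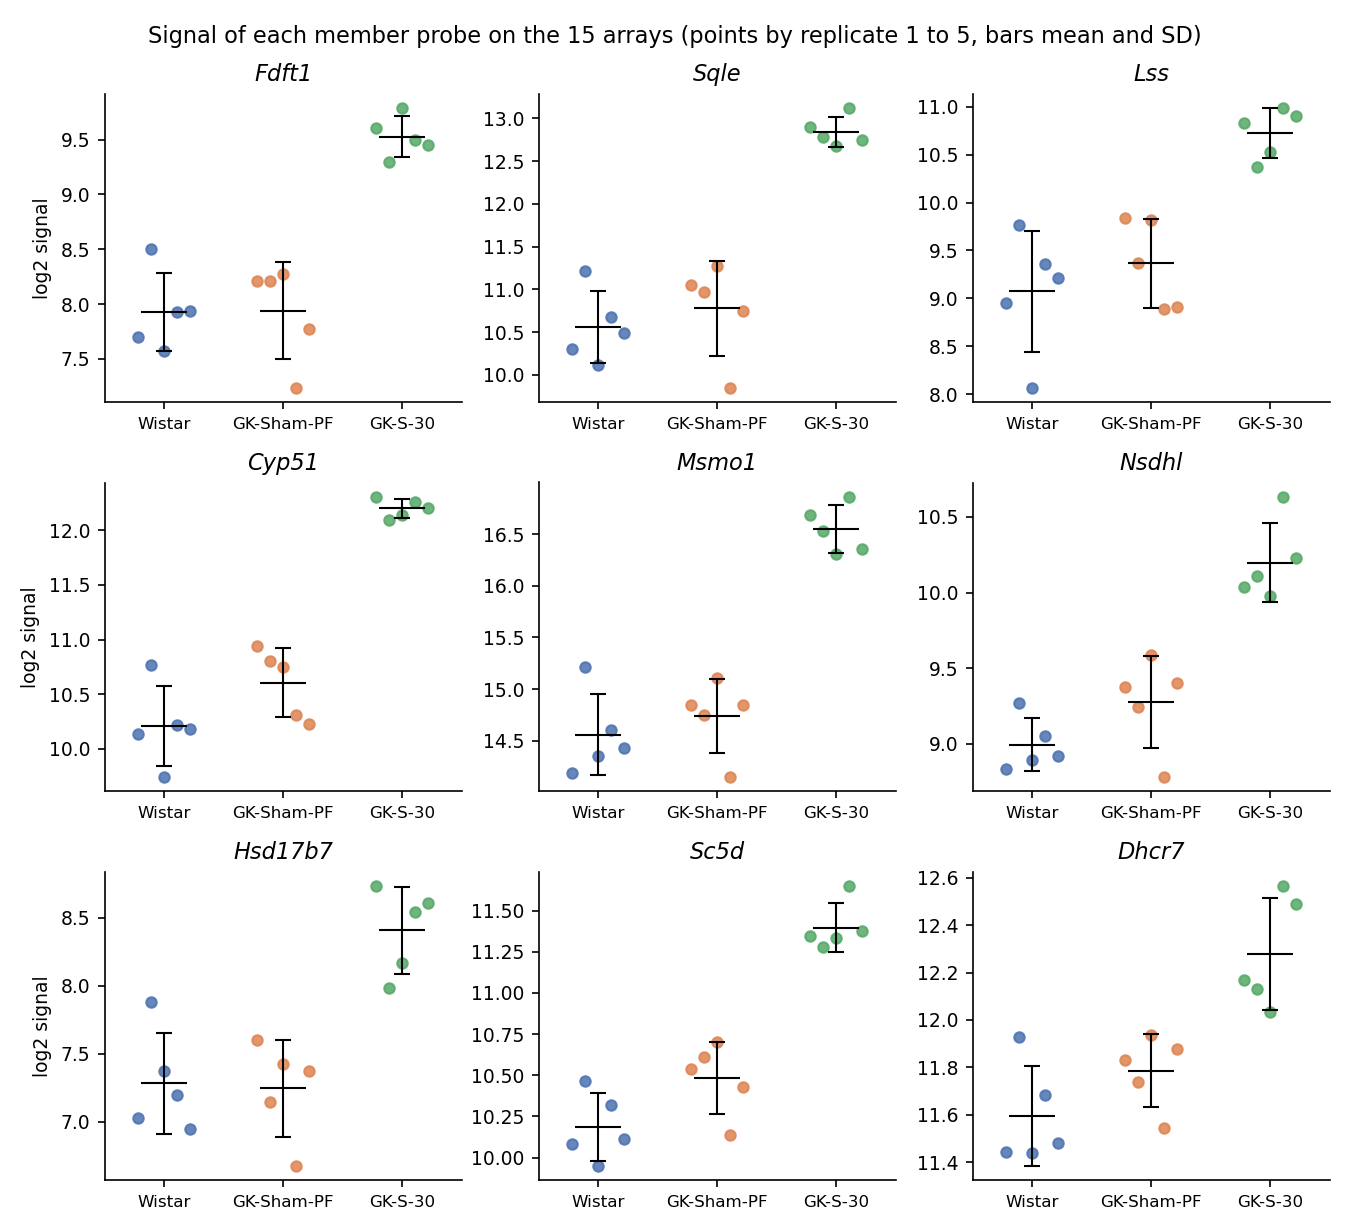
Log2 signal of each member probe (vertical axes, 1 panel per gene with its own scale) on the 15 arrays. Points are the arrays in replicate order, horizontal bars the group means and error bars the SD (n = 5); in every panel the GK-S-30 points lie above all points of the other groups, and Wistar and GK-Sham-PF points overlap.

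Cyp51, the cytochrome P450 that removes the 14-alpha methyl group of lanosterol, had a probe at chr4:26769628-26769687. Wistar arrays gave 10.13, 10.77, 9.74, 10.22 and 10.18. GK-Sham-PF arrays gave 10.94, 10.80, 10.75, 10.31 and 10.23, and GK-S-30 arrays 12.31, 12.09, 12.14, 12.26 and 12.20. The GK-S-30 arrays lay close together, with the smallest SD of any member in any group (0.09, n = 5). In GK-S-30 rats Cyp51 was 3.02-fold above the GK-Sham-PF level (1.60, SE 0.17, adjusted p = 7.65e-05) and 3.97-fold above the Wistar level (1.99, adjusted p = 8.68e-07), the lowest adjusted p of the members in both comparisons. It also showed the largest difference between GK-Sham-PF and Wistar (0.39, limma adjusted p = 0.211), with an unadjusted interval of 0.03 to 0.76 that lay above 0.

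Msmo1, the methylsterol monooxygenase, starts the removal of the methyl groups at carbon 4, a task it shares with Nsdhl and Hsd17b7 (probe at chr16:26716174-26716233). Its probe read 14.19, 15.21, 14.36, 14.61 and 14.43 on Wistar arrays. The GK-Sham-PF values were 14.84, 14.75, 15.10, 14.15 and 14.85, and the GK-S-30 values 16.68, 16.53, 16.30, 16.86 and 16.35. The highest value outside GK-S-30 was that of Wistar 2, and it stayed more than 1 log2 unit below the lowest GK-S-30 array. Msmo1 rose 3.50-fold against GK-Sham-PF (1.81, SE 0.20, adjusted p = 8.6e-05) and 3.97-fold against Wistar rats (1.99, adjusted p = 4.28e-06).

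Nsdhl, a sterol dehydrogenase that takes off the oxidized carbon, was read at chrX:158954224-158954283. Levels were 8.83, 9.27, 8.89, 9.05 and 8.92 in Wistar, 9.37, 9.24, 9.59, 8.78 and 9.40 in GK-Sham-PF and 10.04, 10.11, 9.98, 10.63 and 10.23 in GK-S-30 rats. GK-S-30 4 was the highest array, and the gap to the GK-Sham-PF arrays was narrower than for Msmo1. The rise was 1.90-fold against GK-Sham-PF (0.92, SE 0.15, adjusted p = 0.002) and 2.30-fold against Wistar (1.20, adjusted p = 5.07e-05). Under the slide block the log2 differences were 0.99 and 1.55 and both missed the threshold (adjusted p = 0.0603 for each).

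Hsd17b7, the ketosteroid reductase that closes the carbon 4 cycle, was read at chr13:85776587-85776646. The levels of 7.03, 7.88, 7.37, 7.19 and 6.95 in Wistar and of 7.60, 7.15, 7.43, 6.67 and 7.37 in GK-Sham-PF rats covered almost the same range. GK-S-30 arrays gave 8.73, 7.98, 8.16, 8.54 and 8.61, and the lowest of them lay just above Wistar 2. The difference was 1.16 from GK-Sham-PF (SE 0.21, 2.24-fold, adjusted p = 0.003) and 1.12 from Wistar (2.18-fold, adjusted p = 0.00109). Hsd17b7 was the only member with a lower mean in GK-Sham-PF than in Wistar rats, by -0.04 (interval -0.48 to 0.40, adjusted p = 0.954). With slide as a fixed block the 2 rises were 1.34 and 1.70 (adjusted p = 0.0636 and 0.132).

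Sc5d, the desaturase that sets the double bond at carbon 5, was read at chr8:45231028-45231087. Its levels were 10.09, 10.47, 9.95, 10.32 and 10.11 in Wistar, 10.54, 10.61, 10.70, 10.14 and 10.43 in GK-Sham-PF and 11.34, 11.28, 11.33, 11.65 and 11.37 in GK-S-30 rats. GK-S-30 4 stood above the other GK-S-30 arrays, and no GK-S-30 array overlapped another group. Sc5d rose 1.88-fold over GK-Sham-PF rats (0.91, SE 0.13, adjusted p = 0.000446) and 2.31-fold over Wistar rats (1.21, adjusted p = 6.45e-06). The call against GK-Sham-PF held under the slide block. Between GK-Sham-PF and Wistar the difference was 0.30 (unadjusted interval 0.03 to 0.56, limma adjusted p = 0.195).

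Dhcr7, 7-dehydrocholesterol reductase, makes CHOL from 7-dehydrocholesterol, the precursor that skin also uses for vitamin D (probe at chr1:204258565-204258624). Wistar arrays read 11.44, 11.93, 11.44, 11.68 and 11.48 and GK-Sham-PF arrays 11.83, 11.74, 11.94, 11.54 and 11.88. GK-S-30 arrays read 12.17, 12.13, 12.03, 12.57 and 12.49, and the lowest of them lay just above the highest GK-Sham-PF array. Dhcr7 had the smallest rise of the members, 1.41-fold against GK-Sham-PF (0.49, SE 0.13, adjusted p = 0.029) and 1.61-fold against Wistar (0.68, SE 0.13, adjusted p = 0.00138). The call against GK-Sham-PF was lost on leaving out GK-Sham-PF 1, 2 or 4 or GK-S-30 4 or 5 (adjusted p between 0.0546 and 0.0755), while that against Wistar held without any single array. Under the slide block the differences were 0.44 and 0.83 and neither passed (limma adjusted p = 0.318 and 0.252).

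The estimated rises of the 9 members, each read by 1 probe, differed in size. Ordered by the rise over GK-Sham-PF, the members ran Sqle, Msmo1, Cyp51, Fdft1, Lss, Hsd17b7, Nsdhl, Sc5d and Dhcr7. The 95% intervals of neighbors in this order overlapped, and those of 9 of the 36 pairs did not. Sqle (1.56 to 2.58) and Msmo1 (1.39 to 2.23) lay apart from Nsdhl (0.59 to 1.25), Sc5d (0.65 to 1.18) and Dhcr7 (0.22 to 0.77), Cyp51 lay apart from Sc5d and Dhcr7, and Fdft1 from Dhcr7. Against Wistar 14 of the 36 pairs had separate intervals. The first 5 members in pathway order had the 5 largest differences in each comparison, and the differences between members were not themselves tested.

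Between GK-Sham-PF and Wistar rats none of the 9 members differed at a limma adjusted p under 0.05, where 7.88% of tested probes did. At an unadjusted p under 0.05 there were 2, Cyp51 and Sc5d, and by the Tukey comparison of the methods 0. The means of 8 of 9 members were higher in GK-Sham-PF rats, against 51.8% of probes. The members moved together across arrays, so that they are not 9 independent cases. Their log2 differences ran from -0.04 to 0.39, with a median of 0.21. The arrays of the groups overlapped in all 9, and 4.37% of probes were separated with GK-Sham-PF higher. On slide B, with 3 GK-Sham-PF arrays and 1 Wistar array (replicate 1), all 9 were higher in GK-Sham-PF, by 0.37 (Hsd17b7) to 0.80 (Sqle), a comparison with a single Wistar array and no test. The upper ends of the 95% intervals lay between 0.40 (Hsd17b7) and 0.88 (Lss).

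**Figure D3:**
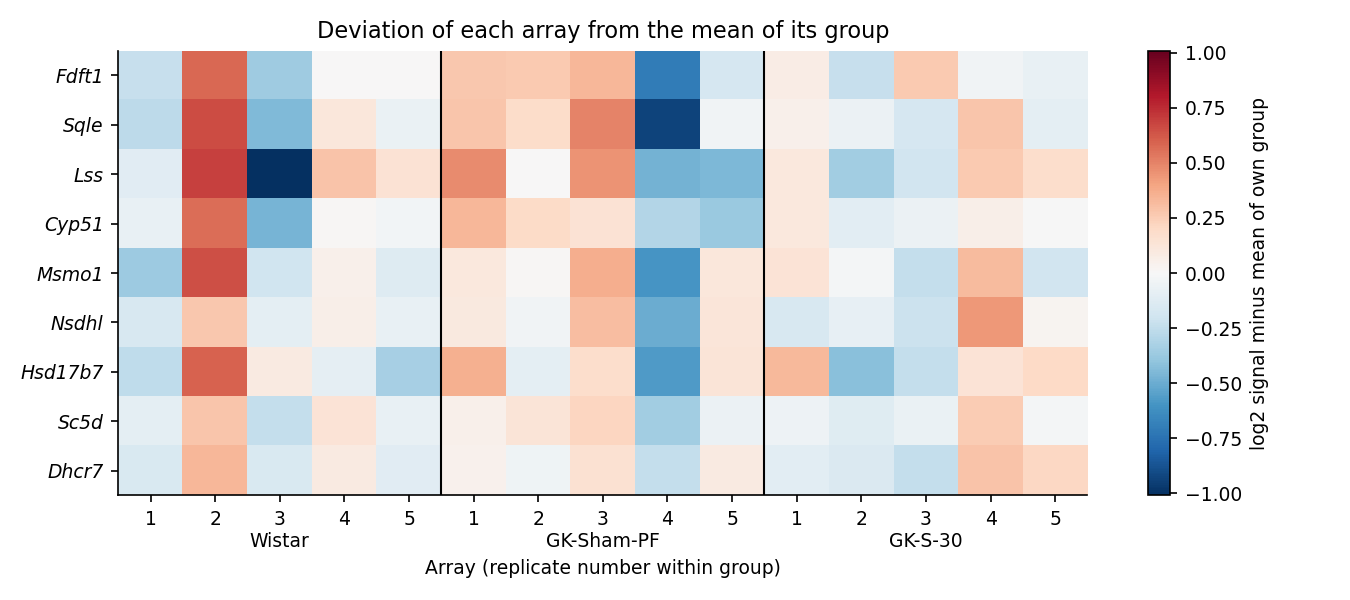
Log2 signal minus the mean of the array's own group, for the 9 members (rows, in pathway order) on the 15 arrays (columns, by group and replicate). Red is above and blue below the group mean; Wistar 2 and GK-Sham-PF 1 and 3 are above in 9 of 9 members and GK-Sham-PF 4 is below in 9 of 9.

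Within the groups the members moved as a block. All 9 lay above the group mean in Wistar 2 (by a mean of 0.51 on the log2 scale), GK-Sham-PF 1 (0.22) and GK-Sham-PF 3 (0.30). None lay above it in GK-Sham-PF 4 (-0.52), Wistar 1 (-0.19) and GK-S-30 2 (-0.17). Across the 15 arrays the deviations of every pair of members correlated positively, with r between 0.49 and 0.94 and a median of 0.76 over 36 pairs. These values describe arrays that each share 1 RNA sample, labelling and normalization among all probes. The spread was smaller in GK-S-30 rats, where the members had a median SD of 0.23 against 0.37 in Wistar and 0.36 in GK-Sham-PF rats. Of the 9, 7 had their lowest SD there, against 36.9% of tested probes. As the members moved together, they are not 9 independent cases.

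The tissue was a piece of whole intestine, in which fewer cells of a type and less RNA per cell cannot be told apart. Of 12 epithelial markers (among them Vil1, Epcam and Fabp1) 0 were called by limma against GK-Sham-PF rats, 5 had means above those of GK-Sham-PF rats, and the median difference was -0.03. Their summed signal was 855200 to 912900 in GK-S-30, 803800 to 931100 in GK-Sham-PF and 823700 to 992500 in Wistar rats. Fabp1, Fabp2 and Krt20 carry most of this sum, so that it says little of the other markers. Lct, for example, differed by -1.06 (adjusted p = 0.27). The mean log2 signal of the 12, in which each weighs the same, was 14.27 to 14.54 in GK-S-30, 14.19 to 14.74 in GK-Sham-PF and 14.21 to 14.64 in Wistar rats. Against Wistar rats 1 was called higher (Cdx1, 0.26) and 1 lower (Fabp2, -0.28). Smooth muscle markers moved with the members. Against GK-Sham-PF rats all 9 tested ones had a higher GK-S-30 mean, 6 of 9 were called (Actg2, Tagln, Des, Cnn1, Myl9 and Synm), and their summed signal was 175500 to 224400 in GK-S-30, 51520 to 117300 in GK-Sham-PF and 64550 to 101000 in Wistar rats. Against Wistar rats 7 of 9 were called higher. Of all genes 4.95% were called higher against GK-Sham-PF and 12.0% against Wistar. Wistar 1 and GK-Sham-PF 4, the arrays with the highest smooth muscle sum of their groups, had 0 of 9 members above the group mean. Without these 2 arrays, a choice made after their values were seen, 8 of 9 members were called against GK-Sham-PF and 9 of 9 against Wistar. The part of smooth muscle in the members' levels was not tested.

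**Figure D4:**
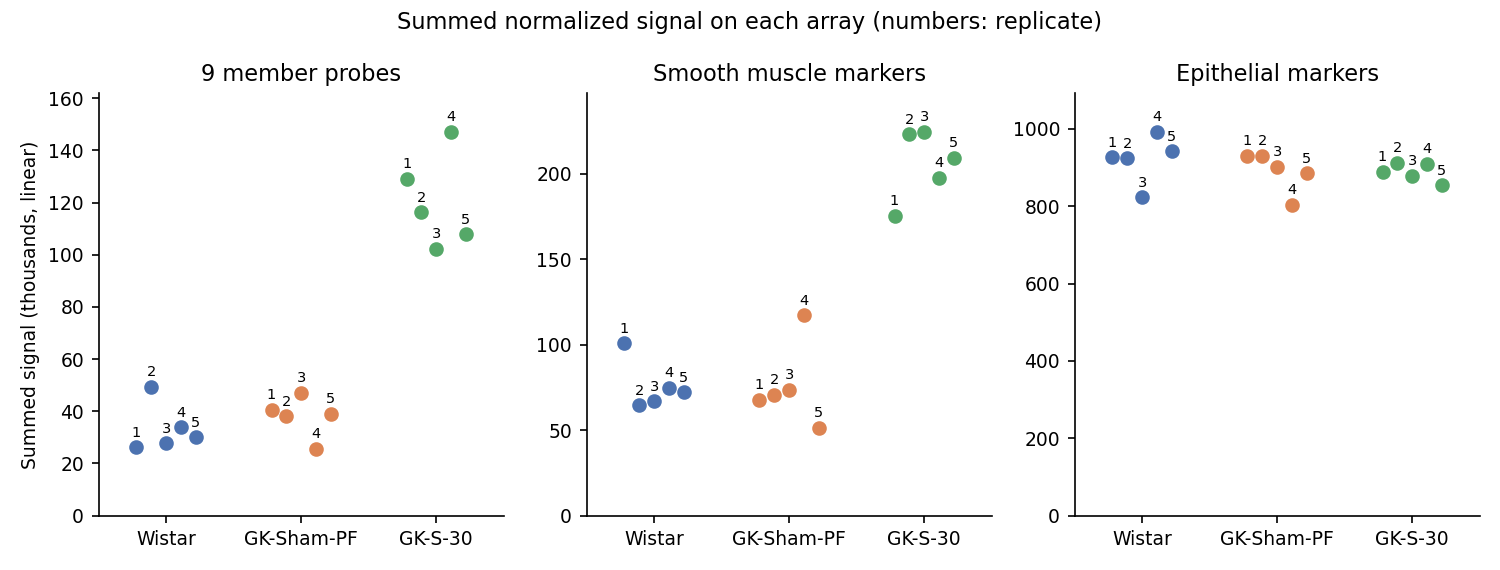
Summed linear signal of the 9 member probes (left), of 9 smooth muscle markers (middle) and of 12 epithelial markers (right) on each array; numbers give the replicate. Members and smooth muscle markers are both higher on the 5 GK-S-30 arrays, GK-Sham-PF 4 is the lowest of its group for the members and the highest for smooth muscle, and the epithelial sums, carried mostly by Fabp1, Fabp2 and Krt20, overlap.

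Markers of other cell types were at hand as well. The stomach markers Gkn1, Gkn2, Atp4a and Muc5ac were not well above background on every array of any group, and of the 3 tested stomach genes 0 were called in any pair. Proliferating crypt markers gave 0 calls among 7 in each pair. Goblet markers gave 1 call among 4 (Clca1, higher) and enteroendocrine markers 3 among 6 (Chgb, Gcg and Sct, higher) against GK-Sham-PF rats, leukocyte markers 1 among 4 (Cd3e, lower), and Paneth, pancreatic acinar and enteric neuron and glia markers 0 among 3 each. Against Wistar rats the calls were 3 of 4 goblet markers higher (Clca1, Agr2 and Tff3), 2 of 6 enteroendocrine markers higher (Chga and Sct), 1 of 3 pancreatic acinar markers higher (Prss1, 2.60), 2 of 3 Paneth markers lower (Lyz2 and Pla2g2a), 3 of 4 leukocyte markers lower (Itgam, Cd3e and Cd68) and 0 of 3 neuron and glia markers. Of all tested probes 8.37% were called against GK-Sham-PF and 24.1% against Wistar, in either direction. The part of these cells in the members' levels was not tested.

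Further sterol arm genes were measured beside the members. Tm7sf2, a sterol reductase active at carbon 14, was higher by 1.13 against GK-Sham-PF (limma adjusted p = 6.79e-06) and by 0.90 against Wistar. Ebp, the sterol isomerase, was higher by 0.46 (adjusted p = 0.011) and 0.70. Lbr, a nuclear envelope protein with the same reductase activity as Tm7sf2, differed by -0.05 and -0.02 at a level near the bottom of the scale (5.24 to 5.29).

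The mevalonate arm, which supplies the members with farnesyl diphosphate, had 7 of 8 genes called higher against GK-Sham-PF and 7 of 8 against Wistar, where 4.95% and 12.0% of genes were. Its median difference of 1.40 against GK-Sham-PF stood beside 1.36 for the members. Idi1 (1.87) and Hmgcs1 (1.81) had the largest differences from GK-Sham-PF, the rises of Acat2 (1.47), Fdps (1.34), Pmvk (0.97) and Mvk (0.77) were smaller, and Mvd (0.62, adjusted p = 0.0899) did not pass. Genes that use farnesyl diphosphate for other products gave 0 calls higher and 1 lower (Pdss2, -0.37) among 6, with a median of -0.02. Of the 8 electron donors and modulators of the sterol enzymes, such as Por, which feeds electrons to Cyp51 and Sqle, 0 passed against GK-Sham-PF. Against Wistar 1 did, Pgrmc1, which was lower by -0.44 in GK-S-30 and by -0.43 in GK-Sham-PF rats.

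**Figure D5:**
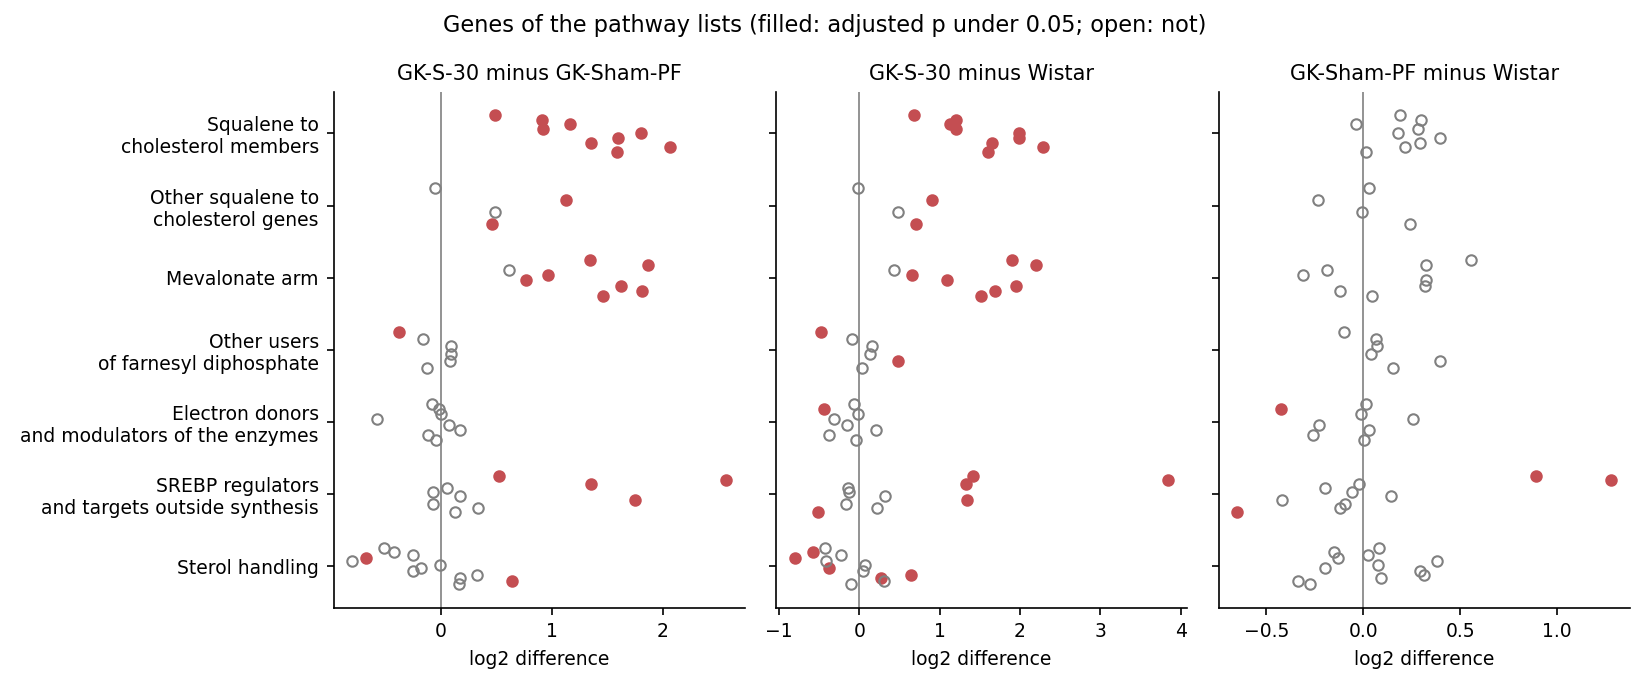
Log2 differences (horizontal axes) of the tested genes of the members and of 6 further lists (rows) in the 3 pairs of groups; filled red points passed a limma adjusted p of 0.05 and open points did not. In both comparisons of GK-S-30 the members and the mevalonate arm lie mostly right of 0, and the users of farnesyl diphosphate and the electron donors lie around 0.

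Among 10 SREBP regulators and targets outside synthesis, 4 were called higher against GK-Sham-PF. Among these were Insig1 (1.76), which holds the SREBP complex in the endoplasmic reticulum, and Stard4 (0.53), a sterol carrier. Srebf2 itself differed by 0.34 (adjusted p = 0.16) and Scap by -0.07 (adjusted p = 0.668). Of 12 genes of sterol uptake, storage and export, 1 was called higher (Npc1, 0.65) and 1 lower (Abcg8, -0.67), with a median of -0.21. Between GK-Sham-PF and Wistar rats, 4 of the 48 tested genes of these 6 lists were called, where 7.88% of all tested probes were. Among the 4 were Stard4 (0.89), which was higher, and Srebf1 (-0.65) and Pgrmc1, which were lower. Of the 9 members 0 were called.

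The genes whose level ran most like the mean of the members over the 15 arrays were ranked among 13015 others. The first 10 included Acat2 (Pearson r = 0.98), Aacs (0.97), Tmem254 (0.96), Idi1 (0.96), Osbpl10 (0.96), Fdps (0.96), Hmgcs1 (0.95) and Mboat4 (0.95), and 6 of the 10 belong to the lists above. These r values include the differences between the group means. Ranked by deviations from the group means instead, 2 of the first 10 were the same, Aacs (0.88), which makes acetoacetyl-CoA in the cytosol, and Acat2 (0.86), the thiolase at the start of the mevalonate arm. Of the first 10 by that ranking 1 (Acat2) belongs to the lists above. The 8 not shared with the first ranking included Casp1 (0.91), Nsun4 (0.91) and Alkbh3 (0.90). All are descriptions over 15 arrays, which share the labelling and normalization of their probes, and were not tested.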

How the data were processed

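Total RNA was hybridized to single-color Agilent whole rat genome arrays (rn4 annotation). The authors extracted each spot's intensity with Feature Extraction 10.7, and the deposited scanner files hold this background-subtracted processed intensity. The authors also deposited log2 values after quantile normalization, used here as an alternative. From the scanner files, control and outlier spots were left out and intensities were averaged per probe. The log2 of these means was then quantile-normalized. Probes were named through RefSeq accessions (17606), symbols or synonyms, or kept the file's name, and 18463 had none. The 17052 named probes well above background on all arrays of at least 1 group were fitted with limma 3.58.1 in R 4.3.3, with 1 mean per group, and Benjamini-Hochberg adjusted p under 0.05 was called. The median SE was 0.149 log2 units, which limits the smallest detectable difference. The fit was tested on simulated data. Each array is 1 rat by the methods. For genes with several probes, the lists used the probe with the highest mean. The members, lists and tests were chosen with earlier results of these data known. The named genes are the members, the called genes of the lists and the 10 genes most like the members, of which some are not reported here. Alternatives covered scaling, background, filters, naming, slide, the methods' ANOVA with Tukey's comparison, and leaving out arrays.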

Additional observations from a re-analysis of the deposited data

Results flagged for a closer look

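Of the 27 sets of 5 arrays formed by 9 members and 3 groups, 1 held an array far from the others of its group. Sc5d read 11.65 on GK-S-30 replicate 4, and the next highest GK-S-30 array read 11.37. By the gap test used, chance marks about 1 in 20 such sets. On the same array 8 of 9 members lay above the group mean.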

How the results depend on the processing

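No member difference between GK-S-30 and either control group changed direction under any alternative. With slide as a fixed block, the members called fell from 9 to 5 in each comparison, and Lss, Nsdhl, Hsd17b7 and Dhcr7 were lost. Over all tested probes, calls in either direction fell from 8.37% to 1.95% against GK-Sham-PF and from 24.1% to 1.6% against Wistar. The cause was not tested. Slide C alone links GK-S-30 to GK-Sham-PF, and Wistar 1 on slide B alone links the Wistar group to the GK groups. Within slide C the 9 differences were 0.44 (Dhcr7) to 2.55 (Sqle). Leaving out 1 array at a time gave 8 to 9 members against GK-Sham-PF, 9 to 9 against Wistar and 0 to 0 for GK-Sham-PF against Wistar. Dhcr7 lost its call against GK-Sham-PF in 9 of 30 alternatives. Tukey's comparison with Benjamini-Hochberg adjustment lost Lss (adjusted p = 0.0552) and Dhcr7 (0.101).

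Of 48 other pathway genes, 16, 22 and 4 were called in the comparisons of GK-S-30 with GK-Sham-PF, GK-S-30 with Wistar and GK-Sham-PF with Wistar. Of all tested probes 8.37%, 24.1% and 7.88% were called there in either direction. Without 1 array 13 to 17, 18 to 23 and 3 to 5 of the 48 were called. Adjusted Tukey values gave 10 against GK-Sham-PF and 2 between GK-Sham-PF and Wistar, where unadjusted ones gave 7. With slide as a fixed block 8 passed for GK-S-30 against Wistar and 1 for GK-Sham-PF against Wistar, where 1.6% and 1.25% of tested probes did. Without Wistar 1 and GK-Sham-PF 4, left out after seeing the data, 2 passed between GK-Sham-PF and Wistar. The causes were not tested.

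Replicate numbers did not pair the arrays: 3 of 15 same-numbered pairs correlated above 0.1, and 1 of 15 arrays correlated best with its own number. With replicate as a block 8 members passed against GK-Sham-PF (Dhcr7 adjusted p = 0.0756), 9 against Wistar and 0 in the remaining pair, and 12, 20 and 3 other pathway genes did. The members were well above background on all 15 arrays, but the size of some rises depended on its handling. With another background correction (normexp), Fdft1 rose over GK-Sham-PF by 1.26 instead of 1.59 on the log2 scale. Hsd17b7 rose by 0.83 instead of 1.16, which is under 2-fold. The median difference of the members from Wistar was 1.27 instead of 1.60, and no member call was lost.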
